A study of Bombyx mori with 4 samples.

Results

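Described here are 102 loci of the silkworm Bombyx mori whose transcript level was low in larval prothoracic glands after 3 h with prothoracicotropic hormone (PTTH), both against glands held as long without it and against glands after 1 h with it. The members were chosen from the measured values, out of 14622 loci in the authors' table and 8547 whose libraries averaged 1 FPKM or more, called tested loci below. FPKM counts sequenced fragments for each kilobase of a transcript relative to the size of the library. With 1 FPKM added to each value, a member had a PTTH 3 h level at most 0.5 times control 3 h with the authors' confidence limits of the 2 values apart, a PTTH 3 h level lower than PTTH 1 h by at least 1.5-fold, and a control 3 h level less than 1.5 times control 1 h. All 4 libraries entered these demands, so the levels below describe the members and test nothing.

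The 4 groups were PTTH 3 h and control 3 h, then PTTH 1 h and control 1 h, each 1 library of RNA from glands kept in Grace's insect medium with 10 nM recombinant PTTH or without it. All larvae were a racial hybrid obtained from Mulberry Farms, Fallbrook, and at day 4 of the fifth instar, and all glands were first held in the medium for 30 min. Glands of 12 to 18 larvae made up an RNA preparation, and 2 preparations were pooled for a library, which leaves no replicates. The glands of a pair were split between both media, so PTTH and control of a time share larvae, while the times come from different larvae. A difference between 3 h and 1 h therefore cannot be told apart from a difference between pools of larvae. The libraries were of similar depth, the authors' limits implying about 8130000 to 10290000 fragments each.

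The prothoracic gland is the endocrine organ that makes ecdysteroids, the steroid hormones that bring on moulting and metamorphosis. PTTH is released by brain neurons and acts on the gland through the receptor tyrosine kinase Torso and the Ras and ERK kinases, and it raises ecdysteroid output and the transcription of genes for steroid synthesis. The table holds no gene names, and 0 of its identifiers matched a reference list of 18210 silkworm genes, so the loci are given by scaffold and position as the table lists them, with no function. For the same reason the tissue could not be checked against marker genes. In RNA from whole glands, fewer cells of a type and less RNA per cell cannot be told apart.

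The 102 loci had a median of 8.45 FPKM in PTTH 3 h, 22.6 FPKM in control 3 h, 17.7 FPKM in PTTH 1 h and 22.4 FPKM in control 1 h. PTTH 3 h was the low library, as the choice demands against control 3 h and PTTH 1 h. The medians of the controls lay close to each other, and that of PTTH 1 h was somewhat below them. Added up, the members made 0.237% of the FPKM of tested loci in PTTH 3 h, against 0.594% in control 3 h, and 0.558% in PTTH 1 h, against 0.671% in control 1 h. The authors' limits in PTTH 3 h were wholly below those of each of the other libraries for 97 of the 102 loci, where 12.7% of tested loci had that pattern, and the demands of the choice bring most of it about. No member was listed at 0 in any library.

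**Figure D1:**
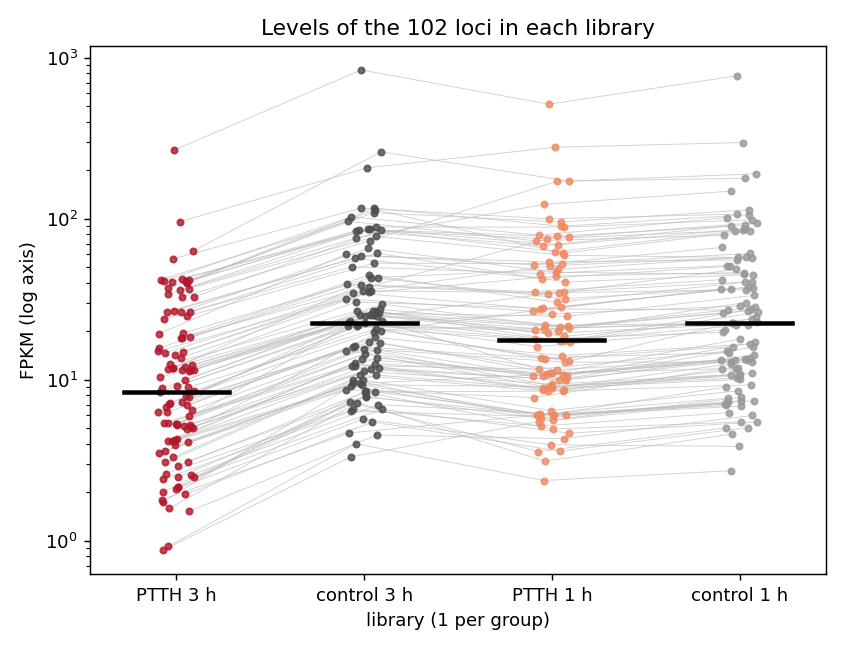
FPKM of each of the 102 loci (points, joined by grey lines) in the 4 libraries on a log axis, with the median as a black bar. The points of PTTH 3 h, median 8.45 FPKM, sit below those of control 3 h, PTTH 1 h and control 1 h, whose medians are 22.6, 17.7 and 22.4 FPKM.

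At 3 h the differences were moderate in size. The log2 ratio of (FPKM + 1), PTTH 3 h over control 3 h, ran from -2.05 to -1.001 over the members with a median of -1.20, and 10 of the 102 were lower by 3-fold or more. Of all tested loci 3.44% were at least 2-fold lower in this comparison, and 2.75% were so with the limits apart, and since members had to pass that demand nothing is read from it. The whole 3 h comparison leaned to lower values, with a median of -0.19 over tested loci, so relative to that shift the median of the members was -1.01. Over all tested loci 294 were at least 2-fold lower and 243 higher as deposited, against 157 lower and 354 higher after centring on the median. Centred in this way, 55 of the 102 members stayed 2-fold below control 3 h and all 102 stayed below it.

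The smallest ratio belonged to XLOC_000963, at nscaf1898 9508700 to 9510677. It had 5.23 FPKM (limits 4.41 and 6.04) in PTTH 3 h and 24.7 FPKM (limits 22.9 and 26.6) in control 3 h, with 10.9 FPKM (limits 9.73 and 12.1) in PTTH 1 h and 17.9 FPKM (limits 16.3 and 19.5) in control 1 h. Its limits were apart between PTTH and control at both times, and the gap was wider at 3 h, 4.73-fold, than at 1 h, 1.64-fold. With 1 FPKM added the log2 ratios were -2.05 ± 0.11 at 3 h and -0.66 ± 0.10 at 1 h, the error being the counting error that the authors' limits imply. The folds printed for a single locus are of FPKM as deposited, while log2 ratios and counts of loci have 1 FPKM added unless stated.

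XLOC_005259, at nscaf2827 367795 to 381714, was as low for its control but started from a much higher level. It stood at 63.1 FPKM (limits 59.7 and 66.5) in PTTH 3 h, 260.0 FPKM (limits 253 and 267) in control 3 h, 171 FPKM (limits 166 and 177) in PTTH 1 h and 189.98 FPKM (limits 183 and 196) in control 1 h. The ratio was -2.03 ± 0.04 at 3 h and -0.15 ± 0.03 at 1 h, so the 1 h libraries lay close together. These 2 were the only members whose level in PTTH 3 h was below 0.25 times that in control 3 h, each with 1 FPKM added.

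Several of the next loci were short or low and rest on fewer fragments. At nscaf2887 13915 to 14395, a locus spanning 480 bases, the level was 1.75 FPKM (limits 0.760 and 2.74) in PTTH 3 h, 9.13 FPKM in control 3 h, 6.01 FPKM in PTTH 1 h and 6.92 FPKM in control 1 h. The value in PTTH 3 h came from about 12.5 implied fragments, and the log2 ratio of -1.88 ± 0.31 is correspondingly loose. The locus at nscaf2987 473920 to 478952 was similar, with 1.59 FPKM (limits 0.690 and 2.48) in PTTH 3 h against 7.22 FPKM in control 3 h, while PTTH 1 h had 3.12 FPKM against 4.60 FPKM in control 1 h. Its limits overlapped between PTTH 3 h and PTTH 1 h, which was so for 5 of the 102 members. At nscaf2828 5000689 to 5001029 the values were 7.79 FPKM (limits 3.77 and 11.8) in PTTH 3 h, 26.6 FPKM in control 3 h, 18.6 FPKM in PTTH 1 h and 23.8 FPKM in control 1 h. Over all members, 7 had fewer than 20 implied fragments in PTTH 3 h.

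The most abundant member was the locus at nscaf2931 936941 to 937907. It had 266 FPKM (limits 239 and 292) in PTTH 3 h, 838 FPKM (limits 792 and 885) in control 3 h, 514 FPKM (limits 475 and 552) in PTTH 1 h and 771 FPKM (limits 721 and 821) in control 1 h. PTTH was below control at each time with the limits apart, by 3.16-fold at 3 h and 1.501-fold at 1 h, while the 2 controls had overlapping limits. At nscaf1690 555912 to 571792, the member with the most fragments, the level was 40.2 FPKM (limits 38.7 and 41.6) in PTTH 3 h, 116 FPKM (limits 114 and 119) in control 3 h, 89.8 FPKM (limits 87.6 and 92.0) in PTTH 1 h and 106 FPKM (limits 103 and 108) in control 1 h. Its log2 ratio at 3 h, -1.51 ± 0.03, was the most precise of the group. At nscaf1681 1790475 to 1799407 the values were 19.3 FPKM in PTTH 3 h, 60.1 FPKM in control 3 h, 51.6 FPKM in PTTH 1 h and 66.3 FPKM in control 1 h. At nscaf3034 4710227 to 4714289 they were 11.8 FPKM in PTTH 3 h, 38.5 FPKM in control 3 h, 34.1 FPKM in PTTH 1 h and 48.4 FPKM in control 1 h. In both of these loci the level without hormone was somewhat lower at 3 h than at 1 h, and the level with hormone was far lower. The remaining 2 of the 12 smallest ratios, at nscaf1299 195756 to 196503 and nscaf3058 4045016 to 4045733, had 2.15 FPKM each in PTTH 3 h, against 8.57 and 7.88 FPKM in control 3 h. The locus at nscaf2828 1145156 to 1146104 is described with the 1 h values.

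**Figure D2:**
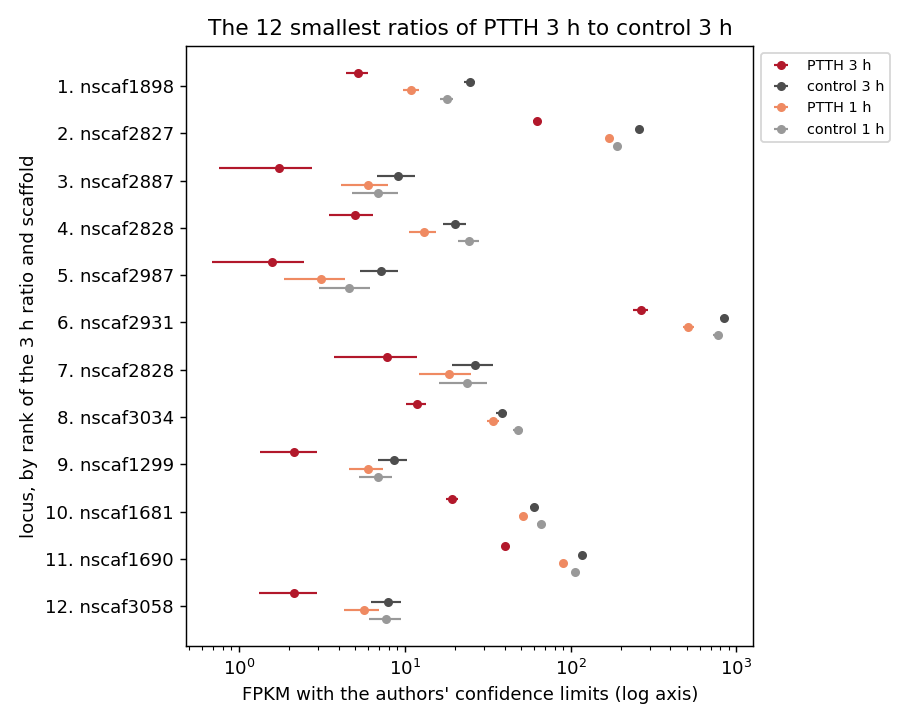
FPKM (points) with the authors' confidence limits (bars) on a log axis for the 12 members with the smallest ratio of PTTH 3 h to control 3 h, named by rank and scaffold. In each of the 12, the limits of PTTH 3 h lie left of those of control 3 h, and for the fifth, at nscaf2987, the limits of PTTH 3 h and PTTH 1 h overlap.

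Between the hormone libraries, PTTH 3 h over PTTH 1 h had a median log2 ratio of -0.92 over the members and -0.03 over tested loci. Being lower by 1.5-fold was a demand of the choice, met by 9.10% of tested loci. A difference of 2-fold or more was seen in 38 of the 102 members, against 1.73% of tested loci, and the limits were apart in 97, against 20.5%. Nothing is read from these shares, as the demand favours both. The largest differences were in loci that were lower at 3 h without hormone too.

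What the controls did over time varied, since the choice set only an upper bound on it. Control 3 h over control 1 h had a median log2 ratio of 0.01 in the members and 0.06 in tested loci. Of the 102, 53 were above 0 and 49, or 48.0%, below it, against 43.2% of tested loci below. After centring on the median 57 were below 0, against 50.0% of tested loci. With a common upper quartile 54 were, against 45.9%, and with a common total 61, against 54.6%. The choice bounds this ratio from above, so nothing is read from these counts. The 2 control libraries were within 1.2-fold for 57 members. The limits of the controls overlapped in 66, while control 3 h was lower with limits apart in 20 members, where 12.8% of tested loci were, and higher with limits apart in 16, where 25.0% were, the second being held down by the choice.

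In 7 of the 102 members control 3 h was at least 1.5-fold below control 1 h, where 5.35% of tested loci were, and all 7 had limits apart. In these loci the level was lower at 3 h in both media and lowest with the hormone. The clearest was at nscaf2887 472569 to 473901, with 32.6 FPKM (limits 30.4 and 34.7) in PTTH 3 h, 73.0 FPKM (limits 69.6 and 76.4) in control 3 h, 171 FPKM (limits 166 and 176) in PTTH 1 h and 178 FPKM (limits 173 and 184) in control 1 h. The 1 h libraries had overlapping limits there, and the 3 h level was 5.24-fold lower than the 1 h level with PTTH and 2.44-fold lower without. Other loci on that scaffold had the same course. At nscaf2887 534297 to 568087, with 33790 bases the longest span among the members, the level was 14.3 FPKM in PTTH 3 h, 35.6 FPKM in control 3 h, 51.0 FPKM in PTTH 1 h and 57.6 FPKM in control 1 h. At nscaf2887 579306 to 584977 it was 34.1 FPKM in PTTH 3 h, 75.8 FPKM in control 3 h, 123 FPKM in PTTH 1 h and 148 FPKM in control 1 h.

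The shortest member, of 276 bases at nscaf3031 3406084 to 3406360, also had this course. It had 18.1 FPKM (limits 12.7 and 23.6) in PTTH 3 h, 37.8 FPKM (limits 29.7 and 45.9) in control 3 h, 77.8 FPKM (limits 66.1 and 89.4) in PTTH 1 h and 90.8 FPKM (limits 77.6 and 104) in control 1 h. Its neighbour at nscaf3031 3406904 to 3409370 had 7.95 FPKM in PTTH 3 h, 19.8 FPKM in control 3 h, 28.3 FPKM in PTTH 1 h and 37.7 FPKM in control 1 h. The lowest of the 7 was at nscaf3079 1715664 to 1718998, with 0.874 FPKM (limits 0.274 and 1.47) in PTTH 3 h, 3.32 FPKM (limits 2.10 and 4.54) in control 3 h, 5.49 FPKM in PTTH 1 h and 7.14 FPKM in control 1 h, where PTTH 3 h rests on 8.48 implied fragments. The seventh locus was at nscaf2931 1567141 to 1581963, with 11.4 FPKM in PTTH 3 h, 24.8 FPKM in control 3 h, 35.3 FPKM in PTTH 1 h and 40.6 FPKM in control 1 h. The abundant locus at nscaf3005 862420 to 863479 came close to them, at 95.8 FPKM in PTTH 3 h, 207 FPKM in control 3 h, 278 FPKM in PTTH 1 h and 297 FPKM in control 1 h.

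In 24 members the controls went the other way, control 3 h being 1.2-fold or more above control 1 h and below the 1.5-fold bound. Their median log2 ratio was -1.32 for PTTH 3 h over control 3 h and -0.71 for PTTH 3 h over PTTH 1 h. In the 21 members whose control was 1.2-fold or more lower at 3 h these medians were -1.12 and -1.40, and in the 57 with controls within 1.2-fold they were -1.19 and -0.91. Control 3 h enters both this split and the 3 h ratio, and the bound on the hormone libraries holds in each set, so nothing is read from the order of these medians. XLOC_000963 and XLOC_005259 belong to the 24 with the higher control at 3 h, as does the short locus at nscaf2888 1796367 to 1796703, which had 26.4 FPKM in PTTH 3 h, 65.4 FPKM in control 3 h, 46.4 FPKM in PTTH 1 h and 45.3 FPKM in control 1 h.

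**Figure D3:**
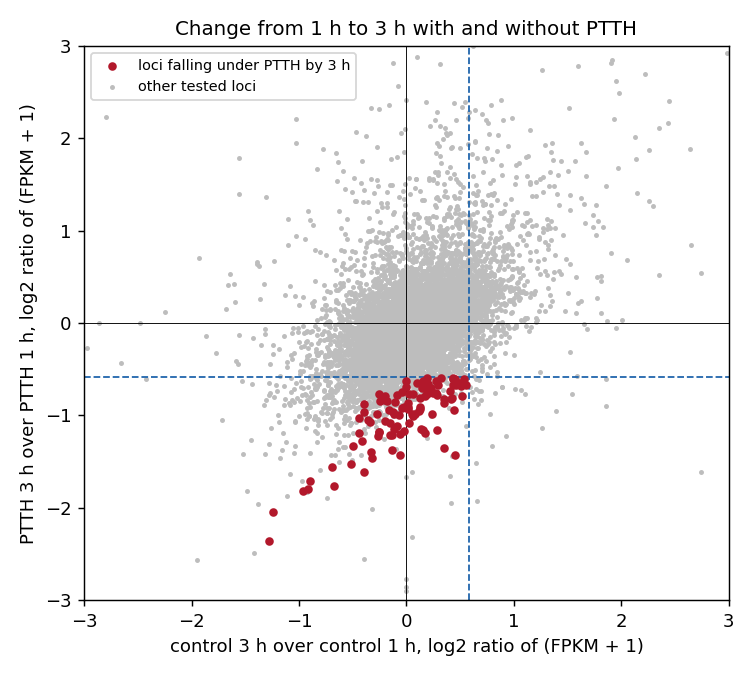
Log2 ratios of (FPKM + 1) between 3 h and 1 h, without PTTH on the horizontal and with PTTH on the vertical axis, for the 102 members (red) and other tested loci (grey, 22 outside the axes not drawn). Dashed lines are the demands of the choice, and the members reach from the vertical bound near the right down to -1.28 without and -2.36 with PTTH at the lower left.

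The hormone comparison at 1 h was not itself a demand, though both of its libraries entered other demands, so it is given as a description. Already at 1 h most members were slightly lower with the hormone. PTTH 1 h over control 1 h had a median log2 ratio of -0.25 in the members and -0.07 in tested loci, and 97 of the 102 members were below control 1 h, against 67.3% of tested loci. With each comparison centred on its median 92 of the 102 were below, against 50.0% of tested loci, with a common upper quartile 94, against 54.6%, and with a common total 97, against 62.3%. PTTH 1 h was lower with limits apart in 41 members, against 10.3% of tested loci, and higher with limits apart in 0, against 3.32%. Median implied fragments in PTTH 1 h and control 1 h were 346 and 423 in the members, against 255 and 248 in tested loci. The bound on the controls favours a high control 1 h, and that on the hormone libraries a high PTTH 1 h. These push the 1 h ratio in opposite directions, so nothing is read from these shares.

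The differences at 1 h were small. With 1 FPKM added, 5 of the 102 were lower by 1.5-fold or more, against 2.76% of tested loci. By FPKM as deposited, a scale added after the values were seen, 9 were, against 4.89% of tested loci, and the locus at nscaf2931 936941 is among those 9 and not among the 5. The counting error of a member's ratio had a median of 0.10. The largest difference at 1 h was at nscaf2828 1145156 to 1146104, with 4.99 FPKM (limits 3.51 and 6.47) in PTTH 3 h, 20.2 FPKM (limits 17.0 and 23.3) in control 3 h, 13.0 FPKM (limits 10.6 and 15.5) in PTTH 1 h and 24.4 FPKM (limits 20.9 and 27.97) in control 1 h. There the hormone library was 4.04-fold below its control at 3 h and 1.88-fold at 1 h. The locus at nscaf2865 2051408 to 2058098 had 6.49 FPKM in PTTH 3 h, 17.0 FPKM in control 3 h, 10.6 FPKM in PTTH 1 h and 17.1 FPKM in control 1 h. Its controls were nearly equal, and the level with PTTH was lower at 3 h than at 1 h. The other members of the 5 were XLOC_000963, nscaf3055 1351319 to 1355508, with 17.3 FPKM in PTTH 1 h against 27.4 FPKM in control 1 h, and nscaf3013 1237484 to 1238939, with 10.1 FPKM in PTTH 1 h against 15.9 FPKM in control 1 h.

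The difference of the log2 PTTH ratios, 3 h minus 1 h, ran from -1.88 to -0.49 over the members with a median of -0.95. It equals PTTH 3 h over PTTH 1 h minus control 3 h over control 1 h, so the choice fixes its sign in the 95 members whose controls were within 1.5-fold. In the 7 others it ran from -1.09 to -0.80. There the choice does not fix the sign outright, but the 2-fold demand at 3 h favours a negative one. It could turn only with PTTH 1 h more than 2-fold below control 1 h, so nothing is read from it. The order of the libraries was control 3 h, control 1 h, PTTH 1 h, PTTH 3 h from high to low in 48 members and control 1 h, control 3 h, PTTH 1 h, PTTH 3 h in 35. In 14 members PTTH 1 h lay above control 3 h, and in 5 it lay above control 1 h. The choice puts PTTH 3 h below control 3 h and PTTH 1 h in every member, so nothing is read from these orders. The highest of the libraries was control 3 h in 53 members and control 1 h in 49, against 42.2% and 25.0% of tested loci, and PTTH 1 h was the highest in 0, against 12.4%. The choice bars PTTH 3 h from being the highest, as it was in 20.5% of tested loci. That raises the shares left to the other libraries, so nothing is read from those of the controls.

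**Figure D4:**
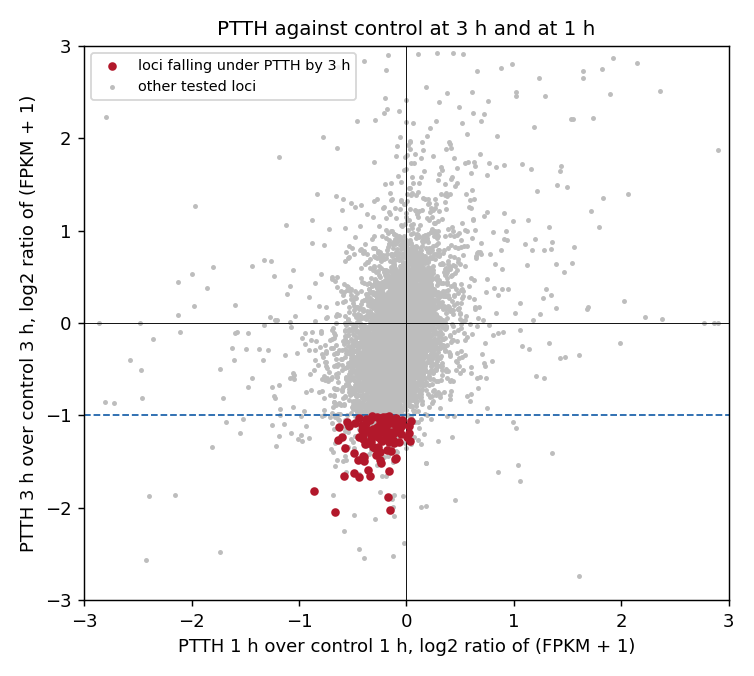
Log2 ratios of (FPKM + 1), PTTH over control, at 1 h on the horizontal and at 3 h on the vertical axis, for the 102 members (red) and other tested loci (grey, 27 outside the axes not drawn). The dashed line is the 2-fold demand at 3 h, and 97 of the 102 members lie left of 0 at 1 h, none beyond -0.86.

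A further 133 tested loci were at least 2-fold lower in PTTH 3 h than in control 3 h with limits apart but were not members, because PTTH 3 h was not low against PTTH 1 h or control 3 h was high against control 1 h. They differ from the members in the controls by that choice: control 3 h over control 1 h had a median log2 ratio of 0.64 in them. At 1 h 118 of the 133 were below control 1 h, with a median log2 ratio of -0.23 for PTTH 1 h over control 1 h. Limits were apart at 1 h, PTTH lower, in 40.2% of members and 26.3% of these loci, a difference that was not tested. A locus with more fragments has narrower limits for its level. Median implied fragments in PTTH 1 h and control 1 h were 346 and 423 in the members, against 124 and 157 in these loci. Nothing is therefore read from the shares with limits apart.

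The choice did not use position, but length and abundance entered it indirectly. Whether limits are apart depends on the number of fragments, and that demand took out 59 of the 294 loci that were at least 2-fold lower at 3 h. Adding 1 FPKM also draws the ratios of low loci towards 1. The abundance and span of the members are therefore given as a description. The mean of a member over the libraries had a median of 18.7 FPKM, against 14.6 FPKM in tested loci and 11.4 FPKM in the other 133. Of the 102, 9 had a mean under 5 FPKM, 47 a mean of 5 to 20 FPKM, 42 of 20 to 100 FPKM and 4 above that, or 8.82%, 46.1%, 41.2% and 3.92%, where tested loci had 23.3%, 36.0%, 32.0% and 8.70%. The span from the first to the last base of a locus, introns included, had a median of 3484 bases in the members and 4524 bases in tested loci, and ran from 276 to 33790 bases. No member overlapped another locus of the table.

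The members lay on 53 of the 354 scaffolds with tested loci. Of these scaffolds 32 held 1 member and 21 held more, at most 6. The 3 scaffolds with 6 members were nscaf2887, with 7.23% of its 83 tested loci, nscaf2930, with 4.80% of 125, and nscaf3031, with 3.19% of 188, where the share over all scaffolds was 1.19%. In 9 places members were consecutive tested loci, with 19 members in them, and 28 members had another within 100 kb. The count within 100 kb has no share over tested loci beside it, so nothing is read from it. Whether such neighbours are separate genes or pieces of 1 transcript is not given in the table, so they are not independent evidence of each other.

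The longest row had 3 members, on nscaf2847. From left to right they were at 6398707 to 6400189, 6419184 to 6441959 and 6452640 to 6461985, and had 24.7, 56.5 and 41.9 FPKM in PTTH 3 h and 52.9, 116 and 96.3 FPKM in control 3 h. At 1 h they had 52.6, 99.7 and 72.8 FPKM in PTTH 1 h and 60.9, 107 and 79.0 FPKM in control 1 h. The tested loci on both sides had log2 ratios of -0.62 and -0.41 at 3 h, short of the 2-fold demand.

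Pairs lay closer together elsewhere. On nscaf2930 the loci at 3650498 to 3657155 and 3664389 to 3665518, 7234 bases apart, had nearly the same profile. At 3 h they had 32.6 and 40.8 FPKM with PTTH and 84.8 and 109 FPKM in the control, and at 1 h they had 77.0 and 95.3 FPKM with PTTH and 94.4 and 114 FPKM in the control. On nscaf3032 the loci at 924097 to 925372 and 926521 to 937419, 1149 bases apart, did not: the first had 8.50 FPKM in PTTH 3 h, 23.3 FPKM in control 3 h, 17.2 FPKM in PTTH 1 h and 26.2 FPKM in control 1 h, and the second 26.3 FPKM in PTTH 3 h, 60.9 FPKM in control 3 h, 40.4 FPKM in PTTH 1 h and 45.0 FPKM in control 1 h. The controls were higher at 3 h than at 1 h with limits apart in the second, and overlapped in the first. The 2 loci on nscaf3031 were 544 bases apart, and the short locus on nscaf2887 lay 582 bases from another member at 10468 to 13333, which had 10.3 FPKM in PTTH 3 h, 22.6 FPKM in control 3 h, 17.9 FPKM in PTTH 1 h and 19.7 FPKM in control 1 h.

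The pair at nscaf2887 534297 and 579306, described with the controls, was 11219 bases apart. The remaining 3 places had gaps of 66893 to 92466 bases. On nscaf1898, XLOC_000963 followed a member at 9414407 to 9416234 with 41.1 FPKM in PTTH 3 h, 103 FPKM in control 3 h, 78.9 FPKM in PTTH 1 h and 102 FPKM in control 1 h. On nscaf2993 the member at 7606570 to 7609400 had 14.6 FPKM in PTTH 3 h against 34.8 FPKM in control 3 h, and the next, at 7676293 to 7683792, 7.14 FPKM against 21.8 FPKM. On nscaf3058 the locus at 4127202 to 4130105 had 2.48 FPKM in PTTH 3 h against 7.80 FPKM in control 3 h, close to its neighbour among the 12 smallest ratios.

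Of the 196 tested loci directly next to a member, 19 were members themselves, or 9.69%, against 1.19% of all tested loci. At least 2-fold lower in PTTH 3 h than in control 3 h were 26 of the 196, or 13.3%, against 3.44% of tested loci. Of these 26, 19 were the members just counted, which are lower by the choice, so the share is not a separate result. At least 2-fold higher were 6 of the 196, or 3.06%, against 2.84%. Leaving out the members removes by construction the neighbours that met the choice. The 177 that are left had a median log2 ratio of -0.23, against -0.18 for all tested loci outside the group, and 7 of them, or 3.95%, were at least 2-fold lower, against 2.27%. At nscaf2887 the locus at 519753 to 520308, between the member at 472569 and the pair that follows, had 2.03 FPKM in PTTH 3 h, 3.99 FPKM in control 3 h, 7.46 FPKM in PTTH 1 h and 6.08 FPKM in control 1 h. It was lower at 3 h in both media, as its neighbours were, and stopped short of the 2-fold demand.

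**Figure D5:**
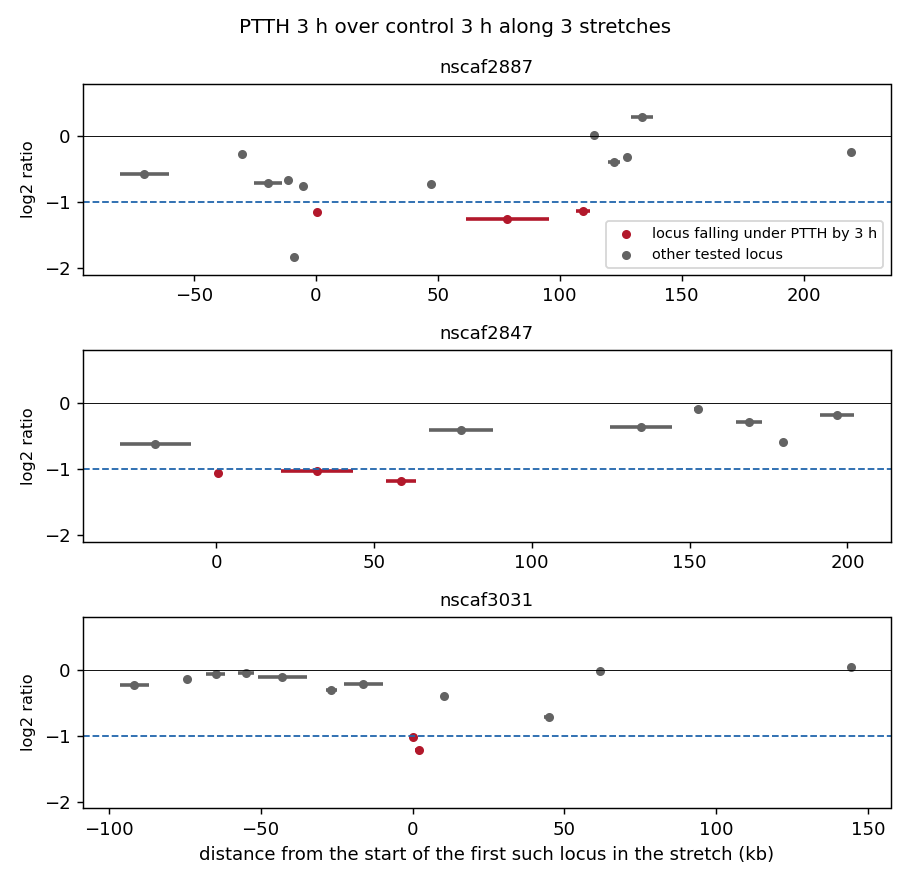
Log2 ratio of (FPKM + 1), PTTH 3 h over control 3 h, of each tested locus along parts of 3 scaffolds, by distance in kb from the start of the first member there. Points mark the middle and bars the span of a locus, and the members (red) at nscaf2847, for example, lie between -1.18 and -1.03 with grey neighbours at -0.62 and -0.41.

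Several loci sat close to the bounds of the choice. The members nearest to the 3 h bound were at nscaf3048 444425 to 477441 and nscaf2855 4954399 to 4962836, with PTTH 3 h at 0.4995 and 0.497 times control 3 h, and the nearest outside were at nscaf2529 5030363 to 5033687 and nscaf2176 2141686 to 2148570, at 0.5004 and 0.501 times, each with 1 FPKM added. For PTTH 3 h over PTTH 1 h the members at nscaf2930 2492413 to 2507936 and nscaf2176 996041 to 997127 had ratios of 0.663 and 0.661, and nscaf2865 5109816 to 5119432 and nscaf2176 2021039 to 2023494 stood just outside at 0.6669 and 0.667. For the controls, members at nscaf2987 473920 to 478952 and nscaf2511 487495 to 489142 had ratios of 1.47 and 1.45, and nscaf3045 1306842 to 1325262 and scaffold626 9213 to 14256 stood outside at 1.51 and 1.52. The members whose limits came closest were nscaf3079 1715664 to 1718998, with an upper limit of 1.47 FPKM in PTTH 3 h and a lower limit of 2.10 FPKM in control 3 h, and nscaf3140 30777 to 33531, with 2.87 and 3.87 FPKM. Just outside were nscaf2865 2536520 to 2536733 and nscaf2888 562506 to 562914, both listed at 0 in PTTH 3 h, with a lower limit of 0 in control 3 h as well.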

How the data were processed

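FPKM values of each locus and library, each with confidence limits, were deposited by the authors as 1 table, made with Cuffdiff per its name. The submitters' processing notes also list CASAVA 1.8.0, TopHat and SAMtools. Build, annotation, scaling of the libraries, the kind of limit and whether positions count from 0 or 1 were not stated. Further columns of the deposited table, with quotients of the FPKM values, were not used. Log2 ratios of (FPKM + 1) were computed, which understates the change of low loci. A limit taken as 2 Poisson standard deviations from its value gives a number of fragments, called implied; 88.4% to 94.4% of low values were then multiples of 0.5 within 0.02. Errors of ratios come from these and cover counting only. No test was made, since each group has 1 library and the choice of members used all 4. The rule for membership was also run on simulated data with counting noise only. Such data cannot show how many loci pass through differences between pools of larvae. The members, and the loci described, were chosen with earlier results of these data known: the 12 smallest 3 h ratios, the 8 highest means, the 5 extremes at 1 h in each direction and of PTTH 3 h over PTTH 1 h, consecutive members, the extremes of span, and loci at each bound. Alternatives were other pseudocounts, filters, scalings and bounds. Python 3.11.15, numpy 2.4.6, pandas 2.3.3 and matplotlib 3.10.9 were used.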

Additional observations from a re-analysis of the deposited data

Results flagged for a closer look

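At 5 of the 102 loci PTTH was below control at 3 h but above it at 1 h. The log2 ratio of PTTH over control was -1.23 at 3 h and 0.0020 at 1 h at nscaf2564 94823 to 101985, and -1.28 at 3 h and 0.034 at 1 h at nscaf2888 1796367 to 1796703. It was -1.19 and 0.021 at nscaf2993 7606570 to 7609400, -1.06 and 0.047 at nscaf3031 4247798 to 4249682, and -1.11 and 0.026 at nscaf3053 386831 to 394774, 3 h before 1 h. The difference between the times was not tested, and at 1 h the limits of PTTH and control overlapped at each of the 5.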

How the results depend on the processing

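How many loci were chosen depended on the scale and the bounds. In place of 102 there were 186 with a pseudocount of 0.1 FPKM and 35 with one of 5 FPKM, 54 after centring and 58 with a common upper quartile, of which 100, 35, 52 and 56 were among the 102. A 3 h bound of 1/1.5 gave 307 and one of 0.25 gave 2; a bound of 1/2 on PTTH 3 h over PTTH 1 h gave 38, and no such bound gave 156. The other 9 alternatives gave 78 to 123. Among them a common total gave 109, of which only 89 were among the 102. With a pseudocount of 5 FPKM the median log2 ratio of the 102 was -0.94 for PTTH 3 h over control 3 h and -0.66 for PTTH 3 h over PTTH 1 h. The other medians moved by less than the normal 95% range of the members' median counting error. That range is for a single locus and is wide for a median over 102 loci. The median for PTTH 3 h over control 3 h still went from -1.20 as deposited to -1.01 after centring. The median for control 3 h over control 1 h, 0.01 as deposited, was -0.05 after centring, -0.02 with a common upper quartile and -0.11 with a common total. Among the 38 members singled out for description, 3 h ratios moved by more than that range of their own counting error in 17 after centring, 1 with 0.1 FPKM and 18 with 5 FPKM, and 0 changed sign. All 102 stayed below control 3 h under each pseudocount and scaling. By FPKM as deposited, a scale added after seeing the data, 9 members in place of 5 were lower by 1.5-fold or more at 1 h. No paired analysis was possible because the results come from no test: PTTH and control form 2 pairs, 1 for each time, and both pairs entered the choice of members. With 1 library in each group no replicate could be left out. Depth limits the loci with few fragments, such as nscaf3079 1715664 to 1718998.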

Other observations

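Near the member at nscaf2887 472569, with 1 tested locus in between, a locus chosen after its values were seen had a larger 3 h difference than the member. At nscaf2887 463264 to 464146 the level was 4.43 FPKM in PTTH 3 h, 18.3 FPKM in control 3 h, 7.76 FPKM in PTTH 1 h and 9.39 FPKM in control 1 h, with a log2 ratio of -1.83 at 3 h. It is not among the 102 because control 3 h was above control 1 h by more than the bound allows, at 0.89 on the log2 scale. The locus in between, at 467154 to 468009, had 1.55 FPKM in PTTH 3 h, 3.28 FPKM in control 3 h, 2.80 FPKM in PTTH 1 h and 4.497 FPKM in control 1 h.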
